A study of Mus musculus with 22 samples.

Results

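Cdk16 (XLOC_061832) and Cdk5r2 (XLOC_000642) are a pair of neuronal genes of the cyclin-dependent kinase family and its activators, and they made up 2 of the 66494 loci measured in cerebellar Purkinje cells (PCs) with and without Tsc1. They were chosen by locus, and the choice rested on these data: the study listed Cdk16 among the genes that differed between genotypes in sorted PCs, and both genes among those whose ribosome binding changed relative to total RNA. The genotype differences in sorted PCs and in ribosome-bound RNA without rapamycin are therefore given as a description, without a test. The rapamycin comparisons were tested, since the choice did not use them, although all but the genotype comparison under rapamycin include untreated TRAP libraries that it did use. Both genes passed the filter on low values in every comparison.

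Cdk16 encodes CDK16 (PCTAIRE1), a serine/threonine kinase of neurons and testis that is activated by the membrane-bound cyclin Y and is known for roles in neurite outgrowth and vesicle transport. Cdk5r2 does not encode a kinase but p39, a myristoylated activator of CDK5 that, like its relative p35, takes the place of a cyclin in postmitotic neurons. CDK5 acts in neuronal migration, dendrite growth and synaptic transmission. TSC1 restrains the kinase complex mTORC1, which promotes protein synthesis, and rapamycin inhibits mTORC1.

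Libraries of total and of ribosome-bound RNA were made from mice, labelled C57BL/6, in which Cre recombinase was driven by the L7 (Pcp2) promoter that is active in PCs. For 10 libraries of total RNA, PCs were sorted by GFP made from an L7GFP transgene, 5 libraries from controls (Tsc1+/+) and 5 from mutants (Tsc1 fl/fl), and according to the methods both genotypes carried L7Cre and L7GFP, although the controls are also described without L7Cre. The study's results text counts fewer animals per genotype than there were labelled libraries, while the legend to its coverage plot counts 5. Here n = 5 therefore counts libraries. For 12 libraries of ribosome-bound RNA, translating ribosome affinity purification (TRAP) pulled down RPL10A-EGFP ribosomes, made from Rosa26fsTRAP after Cre recombination, from the cerebellum of L7Cre animals, with 3 libraries each of control, mutant, control with rapamycin and mutant with rapamycin. Sorted PCs came from animals of P21 or P42, with no age given per library, no label stated how rapamycin was given, and Tsc1 itself was not analysed here, so that the genotype labels were not checked on it. Controls 144a and 144b carried one animal number and were the most similar pair of sorted libraries (r = 0.964 across loci, against 0.957 for the next pair). Mutants 61, 74 and 103 came from submission MS2723, controls 45, 48 and 144b from MS2872. MS3005, with mutants 167 and 191 and controls 144a and 176, was the only submission that held both genotypes. Sorted libraries held 43.3 to 86.3 M fragments and TRAP libraries 2.47 to 6.38 M. According to the methods each TRAP library came from the cerebellum of 1 animal.

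On the GRCm38 assembly, Cdk16 lay at chrX:20687954-20699880 on the plus strand, and the transcript paired with its locus had 16 exons and 3270 bases, of which 1386 were coding. Its neighbours Uba1 and Usp11 were 4775 and 4026 bases away, on the same strand, and did not overlap it. Cdk5r2 lay at chr1:74854934-74857732 on the plus strand as a single exon of 2799 bases, of which 1110 were coding. It lay inside the span of Gm16582, a noncoding gene on the same strand with no exon base in common with it, so fragments from unspliced Gm16582 RNA could not be told apart from Cdk5r2.

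The bases just before the annotated start of each gene are shown as a description, and their part in the level of either gene was not tested. They were taken from RefSeq (GRCm38.p6, plus strand), and bases in annotated exons were left out, so that the Cdk16 stretch is chrX:20687704-20687953 and the Cdk5r2 stretch chr1:74854779-74854933. The RefSeq start of the Cdk5r2 window was chr1:74855029, inside the annotated exon. Capitals mark matches to CCAAT or TGACG on either strand.
Cdk16: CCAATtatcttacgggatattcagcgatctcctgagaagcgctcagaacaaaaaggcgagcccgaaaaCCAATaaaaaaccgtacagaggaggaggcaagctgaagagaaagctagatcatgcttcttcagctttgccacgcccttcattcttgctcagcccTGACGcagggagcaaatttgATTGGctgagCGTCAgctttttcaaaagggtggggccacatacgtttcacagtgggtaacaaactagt
Cdk5r2: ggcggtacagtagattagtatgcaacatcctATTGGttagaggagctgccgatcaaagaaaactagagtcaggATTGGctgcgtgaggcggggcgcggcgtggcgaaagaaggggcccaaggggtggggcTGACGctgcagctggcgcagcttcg
Of 32851 promoter windows of 300 bases, from 250 before to 50 after a start, 37.4% held CCAAT and 20.8% held TGACG on either strand. The Cdk16 window of the bases shown held 3 matches to CCAAT and 2 to TGACG, and the Cdk5r2 window held 2 and 1. GGGCGG, found in 35.7% of windows, had 1 match in this Cdk16 window and 2 in the Cdk5r2 window, all outside the bases shown. Neither of these windows held CACGTG (7.15% of windows) or TATAAA (13.6%). Another Cdk16 window, with its start at chrX:20688426, held no match to any of these motifs. The G and C content was 50.3% in the Cdk16 window of the bases shown, 63.3% in the other Cdk16 window and 71.7% in the Cdk5r2 window, against a median of 52.7%. None of the 3 RefSeq starts began with a C followed by 4 pyrimidines, as 2.51% of windows did. The study took Cdk16 as a gene with a predicted 5' terminal oligopyrimidine motif, a pyrimidine-rich stretch near the transcription start. It saw no significant change of CDK16 protein in whole cerebellum. The letters at RefSeq starts are a different and narrower measure, and do not test that prediction. The motif matches describe letters only and say nothing of binding.

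In sorted PCs, Cdk16 was an abundant transcript and Cdk5r2 an intermediate one. Among loci with a signal of at least 1, Cdk16 lay between the 98.1 and 99.9 percentiles of each library, and Cdk5r2 between the 54.3 and 84.5 percentiles. Per kb of transcript, the control signal of Cdk16 was 22809 ± 7224 and that of Cdk5r2 was 729 ± 352 (SD, n = 5). The ratio of the per-kb signals had a median of 37.4 in controls, with a range of 22.7 to 44.8, and of 51.9 in mutants, with a range of 29.5 to 140.8 in which library 103 was highest.

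Cdk16 signal, the deposited normalised fragment value, was lower in all 5 mutant than in all 5 control libraries. The controls had 114016 in library 45, 78151 in 48, 65901 in 144a, 57592 in 144b and 57260 in 176. The mutants had 24597 in library 61, 32232 in 74, 14256 in 103, 55970 in 167 and 41687 in 191. The groups did not overlap, but mutant 167 and control 176 lay next to each other, and the 3 mutants of MS2723 were the lowest. On the log2(value + 1) scale the means were 16.14 ± 0.41 in controls and 14.90 ± 0.75 in mutants (SD, n = 5 each), a difference of -1.24. Of 16455 loci with a mean log2 of at least 5, 1.39% were lower in mutants without overlap.

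Cdk5r2 signal was lower in mutants on average, with groups that overlapped. The controls had 3527 in library 45, 1787 in 48, 2485 in 144a, 1101 in 144b and 1309 in 176. The mutants had 268.0 in library 61, 577.8 in 74, 86.7 in 103, 923.5 in 167 and 1211 in 191. Mutant 191 was above control 144b, and mutant 103, the lowest, had a signal that corresponded to 85.1 fragments. The means were 10.87 ± 0.68 in controls and 8.76 ± 1.53 in mutants (SD, n = 5 each), a difference of -2.11 on the log2(value + 1) scale. Over all loci tested, the median difference was 0.03. At an unadjusted p under 0.01 with a fold change above 2, the limits by which the study chose genes, 1.08% of loci were lower in mutants. No locus of the sorted comparison had an adjusted limma p under 0.05, and the lowest was 0.394.

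**Figure D1:**
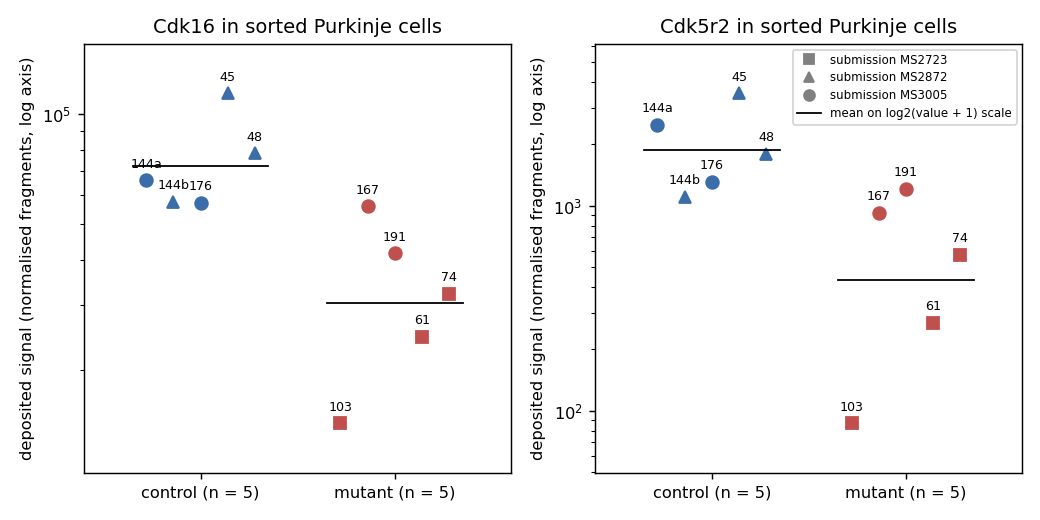
Signal of Cdk16 (left) and Cdk5r2 (right) in each sorted library, on a log axis of normalised fragments, for 5 control (blue) and 5 mutant (red) libraries with their library numbers. The shape gives the submission and the line the group mean of log2(value + 1). The 3 MS2723 mutants were the lowest libraries for both genes, with Cdk16 between 14256 and 32232, while the MS3005 mutants lay near the controls.

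The size of the difference depended on the submissions. Within MS3005, the mean log2 of Cdk16 was 15.56 ± 0.30 in mutants and 15.91 ± 0.14 in controls (SD, n = 2 each), a difference of -0.35. That of Cdk5r2 was 10.05 ± 0.28 and 10.82 ± 0.65, a difference of -0.77. With the MS3005 mutants against all 5 controls, a comparison added after the data were seen, the differences were -0.58 for Cdk16 and -0.82 for Cdk5r2. Without mutant 103, they were -0.97 and -1.53. When 144a and 144b, of 1 animal number, were averaged, they were -1.30 and -2.15.

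Both genes followed the PC markers of the sorted libraries. The summed signal of 10 PC markers was 344000 to 619755 in controls (median 548813) and 51300 to 340284 in mutants (median 109676), without overlap. Within MS3005 the sums were 340284 and 331934 in mutants 167 and 191 and 580542 and 344000 in controls 144a and 176. The MS2723 mutants 103, 61 and 74 had the lowest sums of all, 51300, 71178 and 109676, and the lowest signal of both Cdk16 and Cdk5r2. Of the 10 PC markers, 9 passed the filter on low values, and 8 of these were lower in mutants on average (3 past the limits), with a median difference of -2.45 against 0.03 over all loci. Pcp2, whose promoter drove GFP and Cre, had signals of 75545 to 159421 in the controls against 6101 to 131341 in the mutants, and Itpr1, the calcium release channel of PCs, 83842 to 175016 against 2854 to 56010. Rgs8, a regulator of G-protein signalling, had 67809 to 146339 against 1141 to 73298. Skor2, a transcription factor of PCs that did not pass the filter, was low throughout. It had 8.34 to 50.9 in the controls and 0 to 33.3 in the mutants, with 0 in mutant 103. In these sorted populations, fewer PCs and less RNA per PC cannot be told apart.

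Relative to the PC markers, the mutants were not uniformly lower. Per 1000 units of summed PC marker signal, Cdk16 was 345.6 in mutant 61, 293.9 in 74, 277.9 in 103, 164.5 in 167 and 125.6 in 191. In controls it was 184.0 in library 45, 188.1 in 48, 113.5 in 144a, 104.9 in 144b and 166.5 in 176. The 3 MS2723 mutants were thus above every control on this relative scale, and the MS3005 mutants lay among the controls. The mean log2 ratio of Cdk16 was higher by 0.62 in mutants over all libraries and by 0.06 within MS3005. Cdk5r2 per 1000 units of PC marker signal was 2.01 to 5.69 in the controls (median 4.28) against 1.69 to 5.27 in the mutants (median 3.65). Its mean log2 ratio was lower by a difference of -0.25, and of -0.36 within MS3005, and the groups overlapped. The part of PC marker level in the genotype difference was not tested.

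**Figure D2:**
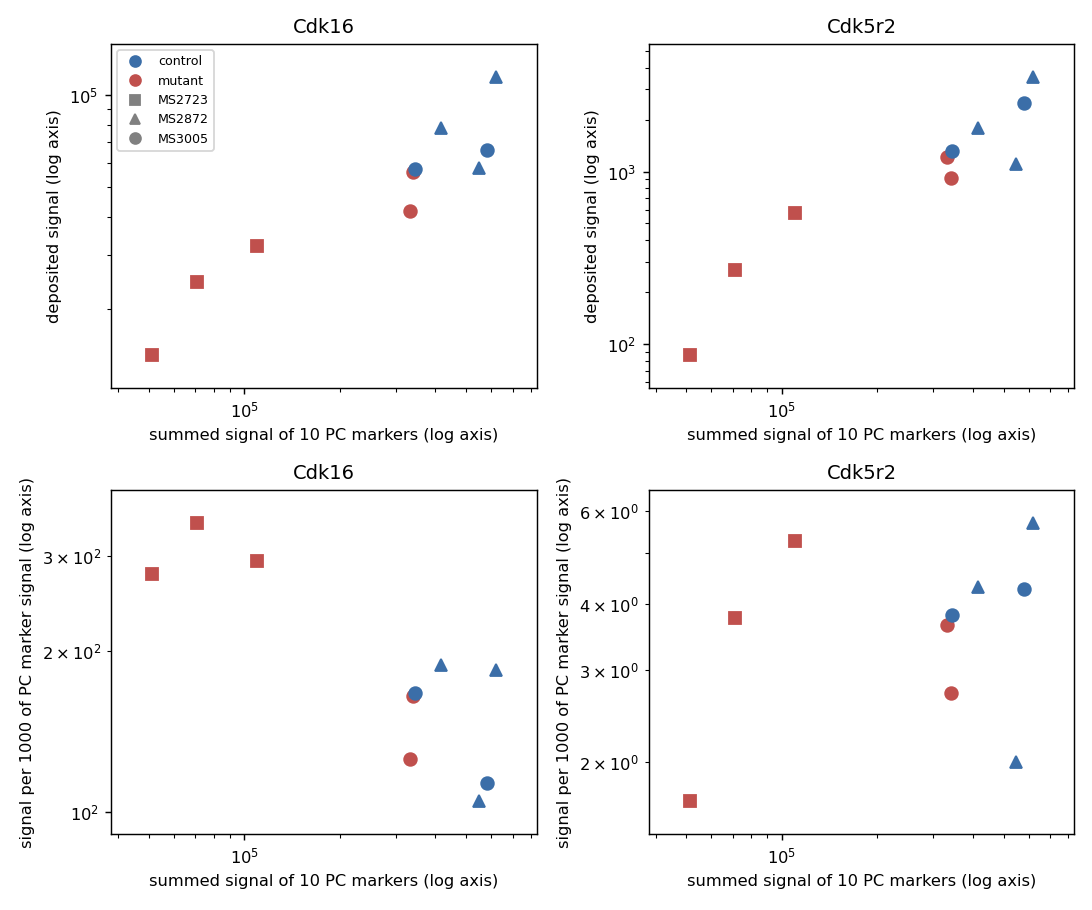
Cdk16 (left) and Cdk5r2 (right) against the summed signal of 10 PC markers in the 10 sorted libraries, both on log axes, as signal (top) and as signal per 1000 units of PC marker signal (bottom), with controls in blue, mutants in red and the submission as shape. Both signals were lowest in the 3 libraries with marker sums of 51300 to 109676, whereas Cdk16 relative to the markers was highest there.

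Over the 10 sorted libraries, Cdk16 and Cdk5r2 rose and fell together, with Pearson's r = 0.97 and Spearman's rho = 0.93 of log2(value + 1). Over the 7 libraries outside MS2723 r was 0.82, and without the 2 libraries farthest from the median of Cdk16 it was 0.89. The PC marker sum had r = 0.93 with Cdk16 and 0.94 with Cdk5r2 over 10 libraries, and 0.68 and 0.72 over the 7 outside MS2723. The libraries share genotype, submission and PC marker level, so these values are descriptive.

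Markers of other cells were also present in the sorted libraries. All 7 astroglia markers were detected in every sorted library, with sums of 332349 to 681250 in controls and 497956 to 661313 in mutants. Aldoc, an aldolase of astroglia and of a subset of PCs, reached 188663 to 336539 in controls and 226702 to 288596 in mutants, and Apoe, the lipid carrier of astroglia, 89052 to 256259 and 172292 to 259880, while Bcan, a matrix proteoglycan, had 23678 to 52761 and 31877 to 60909. The 8 microglia markers summed to 13291 to 55944 in controls and 15681 to 37821 in mutants, and the 3 markers of vascular cells and oligodendrocytes to 8997 to 24723 and 3082 to 31142. The highest of these in sorted controls were the microglial Csf1r (7597 to 30542 in controls, 9088 to 22126 in mutants), C1qc (1834 to 13491 and 2031 to 6519) and Tyrobp (706.9 to 2724 and 1122 to 2147), the endothelial Flt1 (3398 to 10981 and 963.2 to 11529) and Cd34 (2812 to 8761 and 1142 to 13329), and the oligodendrocyte Opalin (1920 to 6182 and 977.5 to 7427). Of the 7 astroglia markers, Tnc and Sox2 were past the limits and higher in mutants, as 0.395% of all loci were. Of the 8 microglia markers 1, Ikzf1, was past them and lower, and of the 3 vascular and oligodendrocyte markers none was past them. With submission as a term no marker of these lists, nor of the PC list, was past the limits. The part of these cells in the signal of Cdk16 and Cdk5r2 was not tested.

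Among 1236 named loci in the sorted libraries, St6galnac4, a sialyltransferase, was the most like Cdk16 (r = 0.99, n = 10 libraries), followed by Pip5k1c, a phosphoinositide kinase of synapses (r = 0.99), and Pitpnm1, a phosphatidylinositol transfer protein (r = 0.98). Those most like Cdk5r2 were Gm10190 (r = 0.99), Cacng2, which encodes the AMPA receptor partner stargazin (r = 0.99), and Shank2, a postsynaptic scaffold (r = 0.99). Cdk5r2 itself ranked 27 among the loci most like Cdk16, and Cdk16 ranked 35 among those most like Cdk5r2. Loci had names here only where the study listed them as changed or selected, so these ranks are within such loci.

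In TRAP libraries, both genes were measured at far fewer fragments. Mutant replicate 3 stood apart from the others, with a total signal of 0.861 M against 3.01 to 5.84 M, and 40.5% of its signal in its 10 highest loci against 58.3% to 72.6%. Cdk16 had 136 to 855 fragments per library, for a counting error of 3.42% to 8.57%, and Cdk5r2 had 17.2 to 186.5, for 7.32% to 24.1%. The fragments of Cdk16 were whole numbers within 0.02 in 12 of 12 libraries and those of Cdk5r2 in 3 of 12. Cdk16 lay between the 92.2 and 99.3 percentiles of a library, and Cdk5r2 between the 31.5 and 94.5 percentiles. The genes were closer in level than in sorted PCs, since the ratio of their per-kb signals in controls had a median of 4.39, with a range of 3.29 to 5.57. As ppm of the signal outside the 10 highest loci, controls without rapamycin had 242.6 ± 35.1 ppm of Cdk16 and 48.3 ± 8.69 ppm of Cdk5r2 (SD, n = 3), against 1218 ± 393 and 33.3 ± 16.1 ppm in sorted controls (SD, n = 5). The tables of sorted and TRAP libraries were normalised separately and the libraries were prepared by different methods, so this is a comparison of shares only. The part of library preparation in these ratios was not tested.

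Without rapamycin, ribosome-bound Cdk16 overlapped between genotypes. Replicates 1, 2 and 3 had 393.2, 274.1 and 364.1 in controls and 372.7, 340.4 and 259.4 in mutants. The mean log2(value + 1) was 8.41 ± 0.27 in controls and 8.33 ± 0.27 in mutants (SD, n = 3 each), a difference of -0.08 that turned positive, to 0.31, with values scaled to equal library totals. Cdk5r2 had 60.4, 71.3 and 70.99 in controls and 112.5, 82.9 and 56.6 in mutants. Its means were 6.10 ± 0.13 and 6.35 ± 0.49, a difference of 0.26. Mutant replicates 1 and 2 lay above all controls and mutant replicate 3 below them. Without mutant replicate 3, the differences were 0.068 for Cdk16 and 0.51 for Cdk5r2, and the loci past the limits fell from 189 to 125. The median difference over 9658 loci was 0.07, and 0.47 after scaling to equal totals. Of these loci, 7 had an adjusted limma p under 0.05 as deposited.

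In the TRAP libraries without rapamycin, PC markers were present in both genotypes, with sums of 10905 to 12693 in controls and 9023 to 10207 in mutants. Of 10 PC markers tested, 8 were lower in mutants on average and 2 higher, with a median difference of -0.31 against 0.07 over all loci. Skor2 was past the limits and lower (-1.36), as 1.01% of all loci were. Itpr1, which is part of the sum, had 1426 to 1503 in mutants against 2563 to 3328 in controls. Astroglia markers summed to 1519 to 2130 in controls and 2738 to 3402 in mutants. Most of that sum was Aldoc, found also in a subset of PCs, at 1414 to 1924 and 2355 to 2999. Of 5 astroglia markers tested, Gfap and Apoe were past the limits and higher in mutants, as 0.942% of all loci were. Tnc was past them and lower, as 1.01% were, and Bcan was lower on average but not past them. Tnc passed the filter only through the controls, with a mean log2 of 3.34 against 1.07 in mutants. Microglia markers summed to at most 6.90 in controls and to 34.5 to 53.0 in mutants, and the 3 markers of vascular cells and oligodendrocytes to at most 1.25 and to 5.78 to 10.5. Per 1000 units of PC marker signal, Cdk16 was 25.1 to 31.0 in controls and 28.8 to 38.1 in mutants, and Cdk5r2 was 4.76 to 6.54 and 6.27 to 11.5. The part of these markers in the TRAP differences was not tested.

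The change in translation efficiency (ΔTE), the genotype difference of log2 TRAP signal minus that of log2 sorted signal, was 1.16 (SE 0.44) for Cdk16 and 2.37 (SE 0.80) for Cdk5r2. They lay at the 86.9 and 97.9 percentiles of 9374 loci, whose median was 0.19. ΔTE combines genotype differences from libraries of different preparation. Both genes were chosen on this measure, and its size came from the sorted libraries, with sorted differences of -1.24 and -2.11 beside TRAP differences of -0.08 and 0.26. Within MS3005 the sorted difference was smaller and ΔTE was 0.26 for Cdk16 and 1.03 for Cdk5r2. With the MS3005 mutants against all controls it was 0.49 and 1.08, and without TRAP mutant replicate 3 it was 1.31 and 2.62.

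The rapamycin comparisons asked whether inhibition of mTORC1 moved either transcript on PC ribosomes. In controls with rapamycin, replicates 1, 2 and 3 had a Cdk16 signal of 130.2, 464.1 and 258.4, so that they lay on both sides of the 3 controls without it. The log2 means were 7.97 ± 0.91 with and 8.41 ± 0.27 without rapamycin (SD, n = 3 each), a difference of -0.44 with a 95% interval of -2.01 to 1.13 (limma, Benjamini-Hochberg adjusted p = 0.910). Cdk5r2 had 78.5, 29.2 and 10.6 in controls with rapamycin, where 2 of 3 libraries were below every control without it and replicate 1 above. Its log2 means were 4.92 ± 1.39 and 6.10 ± 0.13, a difference of -1.17 with an interval of -3.08 to 0.73 (limma, adjusted p = 0.858). The median difference of all 8682 loci tested was -0.31. Neither gene passed an unadjusted p under 0.01 with a fold change above 2, as 1.05% of loci did, and no locus had an adjusted limma p under 0.05, while 460 had an unadjusted p under 0.05. The PC marker sum was 8685 to 9902 with rapamycin and 10905 to 12693 without it. The astroglia sum, mostly Aldoc, was 961.7 to 1441 with rapamycin and 1519 to 2130 without it. The part of these markers was not tested.

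The library with the lowest Cdk16 in that group had the highest Cdk5r2. In control rapamycin replicate 1 the signal of Cdk16 was 1.66 times that of Cdk5r2, against 15.9 in replicate 2 and 24.4 in replicate 3. Without replicate 1 the rapamycin difference in controls was 0.03 for Cdk16 and -1.87 for Cdk5r2, and without replicate 3 the Cdk5r2 difference was -0.48.

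In mutants with rapamycin, replicates 1, 2 and 3 had a Cdk16 signal of 345.5, 367.9 and 564.8, against 259.4 to 372.7 without it. The log2 means were 8.70 ± 0.38 and 8.33 ± 0.27 (SD, n = 3 each), a difference of 0.37 with an interval of -0.47 to 1.21 (limma, adjusted p = 0.759). Scaled to equal library totals, the sign turned, to -0.41, as the median of all loci moved from -0.04 to -0.80, and relative to that median the difference was 0.42 as deposited and 0.39 so scaled. Cdk5r2 had 53.2, 36.6 and 92.4 with rapamycin, against 56.6 to 112.5 without, and a difference of -0.51 with an interval of -1.61 to 0.59 (limma, adjusted p = 0.752). The groups overlapped for both genes. Without mutant replicate 3 the differences were 0.22 and -0.76. Of 9664 loci, 1.75% passed the limits, none had an adjusted limma p under 0.05, and 803 had an unadjusted p under 0.05. The PC marker sum was 9596 to 10836 with rapamycin and 9023 to 10207 without it. The astroglia sum, again mostly Aldoc, was 1616 to 2185 with rapamycin and 2738 to 3402 without it. Gfap and Apoe were past the limits and lower with rapamycin. The part of these markers was not tested. Both rapamycin comparisons share the untreated libraries with ΔTE.

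The genotypes under rapamycin were compared in 6 libraries that had no part in the choice of the genes. Mutants were higher by 0.73 for Cdk16, with a 95% interval of -0.85 to 2.31, and by 0.92 for Cdk5r2, with an interval of -1.10 to 2.95 (limma, adjusted p = 0.873 for both). The groups overlapped for both genes, since control replicate 2 had more Cdk16 (464.1) than mutant replicates 1 and 2, and control replicate 1 had more Cdk5r2 (78.5) than mutant replicates 1 and 2. The median of all 8728 loci was 0.32, 1.23% passed the limits, and 1 locus had an adjusted limma p under 0.05. The intervals allow a mutant level of Cdk16 between 0.56 and 4.95 times that of controls, and of Cdk5r2 between 0.47 and 7.72 times. The interaction of genotype and rapamycin was 0.82 for Cdk16, with an interval of -0.76 to 2.39 (limma, adjusted p = 0.892), and 0.67 for Cdk5r2, with an interval of -1.40 to 2.73 (limma, adjusted p = 0.931). The median interaction of all 9174 loci was 0.33, 1.91% passed the limits, and 12 loci had an adjusted limma p under 0.05. Scaled to equal library totals, the interactions were -0.0035 and -0.14 and the median of all loci -0.45, so that relative to the median they were 0.45 and 0.32, against 0.49 and 0.34 as deposited. Without mutant replicate 3 the interactions were 0.66 and 0.41. The interaction also includes the untreated libraries that entered ΔTE.

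**Figure D3:**
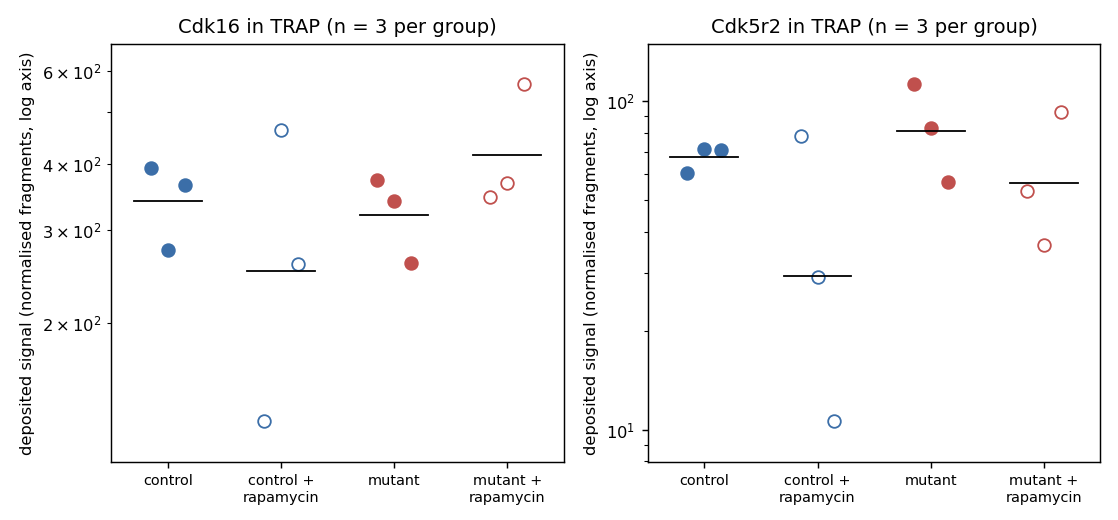
Signal of Cdk16 (left) and Cdk5r2 (right) in the 12 TRAP libraries, on a log axis of normalised fragments, with controls in blue, mutants in red, open circles for rapamycin and a line at the group mean of log2(value + 1). The widest spread was in controls with rapamycin, from 130.2 to 464.1 for Cdk16 and from 10.6 to 78.5 for Cdk5r2.

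**Figure D4:**
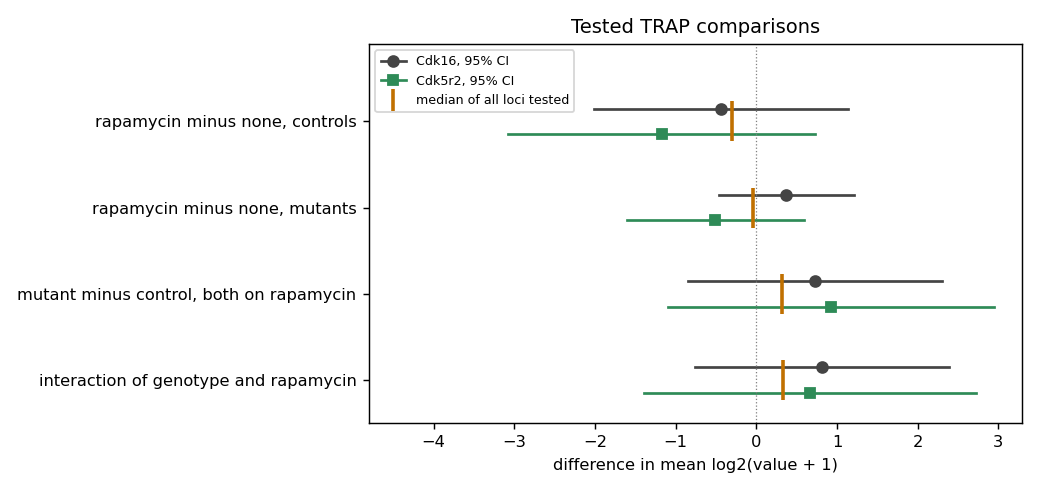
Differences in mean log2(value + 1) of Cdk16 (circles) and Cdk5r2 (squares) in the 4 tested TRAP comparisons, with 95% intervals as lines and the median of all loci tested as a vertical bar. All 8 intervals included 0, and the widest was that of Cdk5r2 in the interaction, from -1.40 to 2.73.

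By mean signal, Cdk16 in TRAP was ordered from mutants with rapamycin (426.1 ± 120.7), controls (343.8 ± 62.1) and mutants (324.2 ± 58.4) to controls with rapamycin (284.2 ± 168.4; SD, n = 3 each). Neighbours in this order overlapped. Cdk5r2 ran from mutants (84.0 ± 27.95), controls (67.6 ± 6.19) and mutants with rapamycin (60.7 ± 28.7) to controls with rapamycin (39.4 ± 35.1; SD, n = 3 each), and here too neighbours overlapped. Both genes were lowest on average in controls with rapamycin, which had the largest spread. Over the 12 TRAP libraries, Cdk16 and Cdk5r2 had r = 0.07. Of 901 named loci in TRAP, those most like Cdk16 were Ppp1r16b, a regulator of protein phosphatase (r = 0.89, n = 12 libraries), Xbp1, a transcription factor of the unfolded protein response (r = 0.87), and Tmtc1, an endoplasmic reticulum protein (r = 0.85). Those most like Cdk5r2 were Hspa14, a chaperone (r = 0.86), Inpp5e, a phosphoinositide phosphatase (r = 0.86), and Rnf145, a ubiquitin ligase (r = 0.85). None of these was among the 3 most alike loci of the sorted libraries.

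Other genes of the pathway were taken from lists of named loci, which the study itself had picked in part on the sorted comparison, so the counts there are not independent evidence. In sorted PCs, where 1.08% of all loci were past the limits and lower and 0.395% higher, 1 of 9 cyclin and CDK genes was past the limits and higher in mutants, Ccnd1, which encodes cyclin D1 (log2 difference 1.005), and none was lower. The list's median was -0.13, against 0.03 for all loci. Ccni, an atypical cyclin, had a difference of -0.55 ± 0.25 (SE), Ccndbp1, a partner of cyclin D1, -0.34 ± 0.17, and Cdk7, the kinase that activates other CDKs, -0.25 ± 0.18. Of 9 substrates and partners of CDK5, 3 were past the limits and lower and 2 higher, with a median of -0.69. None of the loci past the limits in sorted PCs had an adjusted limma p under 0.05, the lowest of all loci being 0.394. Pip5k1c had a difference of -1.17 ± 0.33, Ppp1r1b, the phosphatase inhibitor DARPP-32, -1.18 ± 0.28, and Dnm1, the endocytic GTPase dynamin, -1.23 ± 0.66 (SE), of which Dnm1 was not past the limits. The other member past them and lower was Camk2a, a calcium/calmodulin-dependent kinase of synapses (-3.23 ± 0.99), and those higher were Grin2b, an NMDA receptor subunit (1.496 ± 0.42), and Epha4, an ephrin receptor (1.01 ± 0.25, SE). Of 21 other protein kinases none was past the limits in either direction, although 18 of 21 were below 0, as were 47.4% of all loci, with a median of -0.55. Pink1, the mitochondrial kinase, had a difference of -0.82 ± 0.39, Hipk2, a nuclear kinase, -0.55 ± 0.29, and Camk2b, a calcium/calmodulin-dependent kinase, -1.39 ± 0.66 (SE). With submission as a term, the loci past the limits fell from 242 to 33, and with them 1 of 9 cyclin and CDK genes (higher), 0 of 9 substrates and partners of CDK5 and 0 of 21 other kinases, with medians of -0.06, 0.07 and -0.14 against -0.02 for all loci.

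In the TRAP comparisons these lists held few loci past the limits. Between genotypes without rapamycin, 1 of 8 cyclin and CDK genes tested was lower (Cdkl3, a kinase related to the CDKs, -2.24), 0 of 7 CDK5 substrates and partners were past the limits, and 1 of 21 other kinases was higher (Map3k20, a stress-activated kinase, 2.499), where 1.01% of all loci were lower and 0.942% higher. Cdkl3 passed the filter of a mean log2 of 2 only through the controls (3.23, against 0.99 in mutants). Map3k20 passed it only through the mutants (3.86, against 1.36 in controls). The medians of the lists were 0.46, 0.23 and 0.59, against 0.07 for all loci. With rapamycin in controls, 0 of 7, 0 of 9 and 0 of 19 were past the limits, where 1.05% of all loci were, and the medians were -0.09, 0.08 and 0.09 against -0.31. With rapamycin in mutants, where 1.75% of all loci were past the limits, Ccndbp1 fell by 1.23 on the log2 scale (limma, adjusted p = 0.522) and was the 1 of 8 cyclin and CDK genes past the limits, while 0 of 8 CDK5 substrates and partners and 1 of 20 other kinases were, the latter Mapkapk2, a kinase downstream of p38 (-2.51; limma, adjusted p = 0.568). Between genotypes under rapamycin, 0 of 7, 0 of 9 and 0 of 20 were past the limits, against 1.23% of all loci, with medians of -0.42, 0.25 and 0.25 against 0.32 for all loci.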

How the data were processed

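RNA-seq was performed on 10 sorted PC and 12 TRAP libraries, grouped by their labels. The authors trimmed reads with Trimmomatic 0.39, mapped them with STAR 2.7.0f to GRCm38 and assembled and quantified loci with Cufflinks 2.2.1, and the deposited values, for 66494 loci, are a signal made from estimated fragment counts divided by 1 size factor per library. Only 79.5% to 95.7% of values per library were whole multiples of the commonest low value, taken as 1 fragment. The main fits therefore used no read-count model, and limma-voom on fragments was an alternative setting. Values were transformed to log2(value + 1). Loci with a mean not under 5 in sorted PCs, or 2 in TRAP, in the libraries compared were fitted with limma 3.58.1 in R 4.3.3, without a submission or replicate term, and Benjamini-Hochberg adjusted p-values were taken over all loci. Limits were those of the study, p under 0.01 before adjustment with more than a 2-fold change. The pseudocount understates changes of low loci.

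Members, lists and tests were chosen with earlier results of these data known. Of 66494 loci, 1635 had a name here, from the transcripts the study paired with them. Named genes were the 2 members and the 3 genes of each list highest in sorted controls. The 3 loci most correlated with each member in each assay were also named. Skor2 and list genes past the limits were chosen after their values were seen, but not every PC marker past the limits was named. The values of 1 marker gene are not reported here. The limits of depth are given as Poisson counting error, which covers counting only. The fits were tested on simulated data. Figures were drawn with matplotlib 3.10.9.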

Additional observations from a re-analysis of the deposited data

How the results depend on the processing

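No setting put either gene past the limits in a tested TRAP comparison, over 17 alternatives per gene and comparison, or 22 for the interaction. The lowest adjusted p was 0.452, in limma-voom on fragments, for Cdk16 with rapamycin in mutants. Unadjusted p was under 0.05 in 2 of these alternatives, both for Cdk5r2 with rapamycin in controls. It was 0.024 in limma without control rapamycin replicate 1 and 0.027 in limma-voom on fragments. In sorted PCs the genotype difference was -0.35 (Cdk16) and -0.77 (Cdk5r2) both with submission as a term and within MS3005, and -0.58 and -0.82 with the MS3005 mutants against all controls, which was added after the data were seen; ΔTE became 0.26 and 1.03, and 0.49 and 1.08. Between genotypes in TRAP, Cdk16 turned to 0.091 with quantile normalization, 0.31 with equal library totals and 0.29 with equal totals outside the 10 highest loci, and to 0.021 without control replicate 1 and 0.068 without mutant replicate 3; Cdk5r2 moved to 0.65 and 0.63 with the scalings by totals. With rapamycin in mutants Cdk16 turned to -0.41 and -0.15 under these scalings, and the interaction to -0.0035 (Cdk16) and -0.14 (Cdk5r2) with equal totals. These scalings move the median of all loci too: relative to it, Cdk16 with rapamycin in mutants was 0.42 as deposited, 0.39 and 0.40, the interactions 0.49 against 0.45 and 0.34 against 0.32, and Cdk16 between genotypes -0.15, -0.15 and -0.14, or 0.031 with quantile normalization.

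With one library left out, the sorted difference ranged from -1.46 to -0.97 (Cdk16) and -2.48 to -1.53 (Cdk5r2), ΔTE from 0.88 to 1.37 and 1.79 to 2.74, the TRAP genotype difference from -0.24 to 0.07 and 0.02 to 0.51, rapamycin in controls from -0.89 to 0.03 and -1.87 to -0.48, rapamycin in mutants from 0.15 to 0.51 and -0.86 to -0.20, the genotypes under rapamycin from 0.26 to 1.18 and 0.23 to 1.62, and the interaction from 0.35 to 1.26 and -0.03 to 1.36. The signs that turned were Cdk16 between genotypes in TRAP (above), Cdk16 with rapamycin in controls (0.027 without control rapamycin replicate 1) and the Cdk5r2 interaction (-0.027 without control rapamycin replicate 3).

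TRAP replicate numbers were shared between groups, but same-numbered libraries did not deviate together (r from -0.07 to 0.07 over 18 pairs). A replicate block left each difference as it was (-0.08 and 0.26 between genotypes, -0.44 and -1.17 with rapamycin in controls, 0.37 and -0.51 in mutants, 0.73 and 0.92 under rapamycin, 0.82 and 0.67 for the interaction). It called 71 loci in place of 91 with rapamycin in controls, 100 in place of 169 in mutants and 64 in place of 107 between genotypes under rapamycin. Between genotypes without rapamycin it called 202 in place of 189, and for the interaction 159 in place of 175. Over settings other than single libraries, the loci past the limits ranged from 33 to 703 around 242 in sorted PCs, from 24 to 493 around 91 and from 59 to 439 around 169 with rapamycin in controls and mutants, from 32 to 517 around 107 between genotypes under rapamycin and from 28 to 390 around 175 for the interaction. With one library left out they ranged from 104 to 531, 46 to 457, 73 to 218, 55 to 460 and 125 to 524 in that order, and from 101 to 363 around 189 between genotypes in TRAP. At 17.2 to 186.5 fragments, Cdk5r2 in TRAP was limited by depth as well as by 3 libraries a group.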
